A study of Mus musculus with 8 samples.

Results

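The 9 genes described here, Rbm20, Rbm24, Rbfox1, Rbfox2, Mbnl1, Mbnl2, Celf1, Celf2 and Ptbp1, encode RNA-binding proteins that regulate alternative splicing in heart muscle. They were taken by symbol from a table of 48440 gene entries, and all 9 were among the 13771 entries with enough reads to be tested. The table holds read counts per gene for cardiomyocytes purified from C57BL6/J mice at postnatal day 2. There are 8 libraries, 1 male and 1 female from each of 4 litters, and no treatment, mutation or transgene is given for any of them. The design therefore allows males to be compared with females (n = 4 each) and litters with each other (n = 2 libraries each). Whether a library holds cells of 1 animal or of several is not given in the sources used here.

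Splicing regulators of this kind bind short motifs in a pre-messenger RNA and favour or block the use of a nearby exon. Around birth the heart changes the splicing of many sarcomere, calcium-handling and membrane-trafficking genes, and a change in the balance of CELF proteins, which are high in the fetal heart, and MBNL proteins, which act more in the mature heart, is the best-known part of that change. RBM20 represses exons of titin and is mutated in dilated cardiomyopathy, RBM24 is a muscle splicing factor needed for sarcomere formation, RBFOX proteins bind the UGCAUG element, and PTBP1 represses exons that are used in mature muscle and neurons. Reads were counted per gene, so the values below are levels of the regulators and hold no information on which exons were used.

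Total counts per library ran from 14226342 to 24910243, the smallest being the female of litter 3. Values are given as CPM, a gene's count over the library total on a scale that is the same for all libraries, with totals scaled by the trimmed mean of M values. The 10 cardiomyocyte markers, such as Myh6 and Actc1, summed to between 53600 and 80700 CPM. Fibroblast, endothelial and mural markers summed to 32.4 to 243, 16 to 148 and 422 to 1140 CPM, and the leukocyte gene Ptprc had at most 1 count in any library. The libraries of litter 3 stood apart: 3903 of the 13771 tested genes, 28.3%, differed between them and the mean of the other litters, against 1827 (13.3%) for litter 1, 575 (4.18%) for litter 2 and 1447 (10.5%) for litter 4. Litter 3 was also low in markers of several cell types, as given beside the results below, and the mitochondrial share of counts was 18.46% in the male of litter 4 against 13.43% to 15.20% elsewhere.

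Because 3 of the families have closely related members, the longest identical stretch between an annotated coding sequence of each gene of a pair bears on whether reads of 100 bases could tell them apart. In the lines that follow, which were read from the annotated mouse transcripts (GENCODE M21, mm10), capitals mark the longest run shared by the compared sequences and lower case the 30 bases on each side.
Rbfox1: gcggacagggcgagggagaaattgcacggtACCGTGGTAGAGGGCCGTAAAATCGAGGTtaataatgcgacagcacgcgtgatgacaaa
Rbfox2: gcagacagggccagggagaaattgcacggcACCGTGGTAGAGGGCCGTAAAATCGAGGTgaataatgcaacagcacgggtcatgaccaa
Mbnl1: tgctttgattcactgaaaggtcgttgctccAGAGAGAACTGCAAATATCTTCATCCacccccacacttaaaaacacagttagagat
Mbnl2: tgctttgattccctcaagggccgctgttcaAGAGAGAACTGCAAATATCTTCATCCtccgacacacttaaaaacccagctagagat
Celf1: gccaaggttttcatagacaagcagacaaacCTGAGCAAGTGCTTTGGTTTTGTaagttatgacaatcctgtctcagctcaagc
Celf2: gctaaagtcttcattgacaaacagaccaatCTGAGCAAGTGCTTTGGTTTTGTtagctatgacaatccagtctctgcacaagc
Every annotated coding transcript of a gene was compared with every one of its partner, and the pair with the longest shared run is printed. The transcripts so chosen for Rbfox1 (868 coding bases) and Mbnl1 (546) are shorter than those of their partners (1347 and 1119). The shared run was 29 bases for Rbfox1 and Rbfox2, 26 for Mbnl1 and Mbnl2 and 23 for Celf1 and Celf2. All 3 are shorter than a read, and no stretch of 100 bases in the longest coding transcript of these 6 genes occurred in an annotated transcript of another gene. Each printed sequence, flanks included, spans an exon junction. The Rbfox1 bases lie at chr16:7292221-7292277 and chr16:7294070-7294101 on the plus strand, and those of Rbfox2 at chr15:77105577-77105633 and chr15:77102908-77102939 on the minus strand. The Mbnl1 bases lie at chr3:60529787-60529804 and chr3:60595594-60595661, and those of Mbnl2 at chr14:120325395-120325412 and chr14:120379150-120379217, both on the plus strand. The Celf1 bases lie at chr2:91012797-91012842 and chr2:91013238-91013274 on the plus strand, and those of Celf2 at chr2:6549832-6549877 and chr2:6547177-6547213 on the minus strand. Ptbp1 was the exception among the 9, with 10.88% of the 100-base windows of its longest coding transcript shared with Gm17134, Gm4900 or Plppr3. It also overlaps Plppr3, Gm17134 and E130317F20Rik on the opposite strand, and Mbnl2 and Celf2 overlap Gm26679 and Gm26565 in the same way, so reads there can be told apart only if strand was used in counting.

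Per unit of transcript length, the muscle-specific factors were the most abundant of the 9 and the CELF2, RBFOX1 and PTBP1 messages the least. On the scale of CPM per kb of the longest coding transcript, Rbm24 had a level of 161 ± 26.2 (mean ± SD, n = 8 libraries). The level of Rbm20 was 127 ± 5.25, and that of Mbnl2, the next in order, was 37.4 ± 4.96. Rbm24 ranged from 133 to 200 and Rbm20 from 116 to 132, so their ranges only just failed to meet. Below them came Celf1 at 30 ± 2.37 and Rbfox2 at 27.9 ± 2.20. The ranges of Mbnl2 and Celf1 overlapped, as did those of Celf1 and Rbfox2, so the order of neighbours among these 3 was not separated by the spread of the libraries. Mbnl1 followed at 18.8 ± 1.29 and Ptbp1 at 14.3 ± 1.23, then Rbfox1 at 11.0 ± 1.39 and Celf2 at 9.55 ± 0.996. The ranges of Ptbp1 and Rbfox1 overlapped, and so did those of Rbfox1 and Celf2. The order depends on the length used: divided by the merged length of all annotated exons, Rbm24 (142 CPM per kb) and Rbm20 (91.6) were still highest and Celf2 (3.27) lowest, but Mbnl2 went from rank 3 to rank 5 and Mbnl1 from rank 6 to rank 8.

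**Figure D1:**
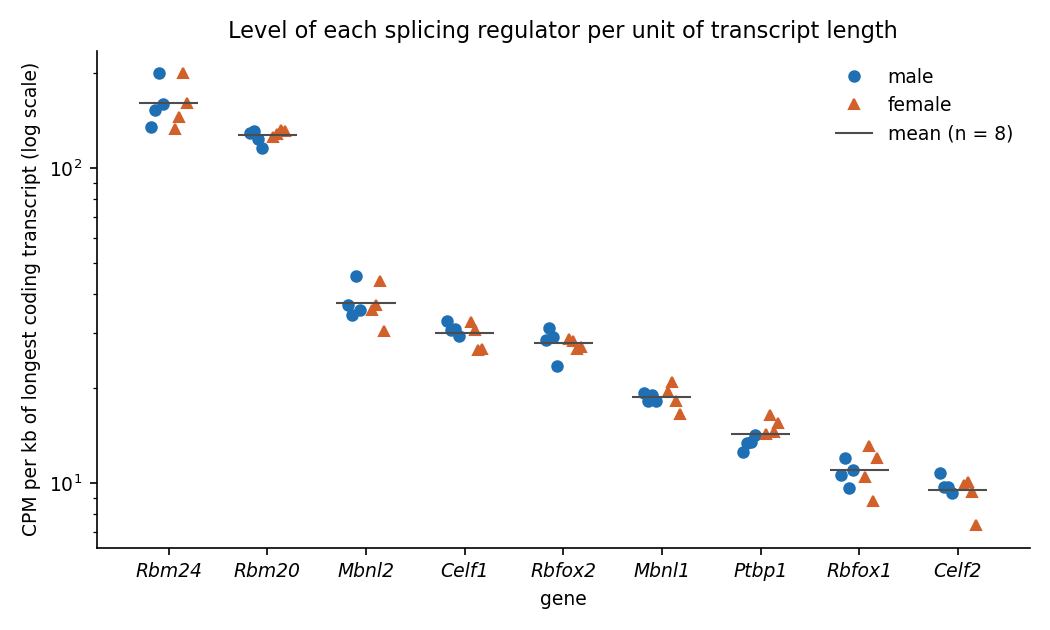
Level of the 9 splicing regulators in CPM per kb of the longest coding transcript (vertical axis, logarithmic), with genes ordered by their mean. Circles are male libraries, triangles female libraries and lines the mean of 8; Rbm24 and Rbm20 lie above 100 in every library and the other 7 genes below 50.

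Rbm20 was the most even of the 9 between libraries. Its CPM in the males of litters 1 to 4 was 631, 643, 605 and 569, and in the females 618, 624, 646 and 639. No litter or sex stood out, and the coefficient of variation over the 8 libraries was 4.07%. Of the 4838 tested genes with a mean of at least 33.5 CPM, the mean of the lowest member, 2.75% varied less than Rbm20, and their median coefficient of variation was 9.46%. The gene lies at chr19:53677306-53867080 (mm10, plus strand). Its log2 fold change between males and females was -0.05 with a 95% interval of -0.21 to 0.12, and its litter means spanned 0.07 on the log2 scale (edgeR adjusted p = 0.841).

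Rbm24, at chr13:46418434-46431095 on the plus strand, was the most variable, with a coefficient of variation of 16.3% that exceeded that of 88.4% of the same genes. Its CPM in the males of litters 1 to 4 was 416, 472, 616 and 493, and in the females 409, 448, 616 and 498. Male and female of a litter were close together and the litters lay apart: both libraries of litter 3 were above all 6 others and both of litter 1 below all 6 others. The litter means were 413 ± 4.94, 460 ± 17.2, 616 ± 0.401 and 495 ± 3.95 CPM (SD, n = 2 each). Rbm24 passed the test of any difference between litters (edgeR quasi-likelihood F test, adjusted p = 0.000401, log2 range 0.58). It was 1.35-fold higher in litter 3 than in the mean of the other litters by CPM (log2 fold change 0.44 ± 0.05 SE, adjusted p = 0.000117). In litter 1 it was lower than in the others (log2 fold change -0.33 ± 0.05 SE, adjusted p = 0.00245), and this call was lost without litter 3 (log2 fold change -0.21, adjusted p = 0.0586). Without the male or the female of litter 1 that log2 fold change stayed at -0.34 or -0.33, with an adjusted p of 0.0877 or 0.0843.

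The ratio of Rbm24 to Rbm20, on the scale of CPM per kb, summarises the difference between these muscle factors. In litters 1 and 2 it ran from 1.04 to 1.16, in litter 4 from 1.23 to 1.37 and in litter 3 from 1.51 to 1.61. Litter 3 did not overlap the other litters. No test was run on this ratio, which was chosen after the levels were seen.

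Of the RBFOX genes, Rbfox1 passed the litter test and Rbfox2 did not, and the difference between them was not tested. Rbfox1, at chr16:5885355-7411526 on the plus strand, had 32.4, 36.6, 29.5 and 33.7 CPM in the males of litters 1 to 4 and 32.0, 40.2, 26.9 and 36.7 CPM in the females. Both libraries of litter 3 were the lowest of the 8. Rbfox1 passed the litter test (adjusted p = 0.017, log2 range 0.44) and was lower in litter 3 (log2 fold change -0.31 ± 0.08 SE, adjusted p = 0.0109), at 0.799 of the mean of the other litters by CPM. The female of litter 3 had 391 counts of the gene, for a counting error of 5.06%, and without that library the adjusted p for litter 3 was 0.189. After thinning all libraries to the depth of the shallowest it was 0.0551. The litter test itself missed the threshold when a female was left out (adjusted p = 0.0625 for that of litter 2 and 0.0875 for that of litter 3), and when litter 2 was left out (0.06).

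Rbfox2, at chr15:77078990-77307004 on the minus strand, had 197, 215, 202 and 163 CPM in the males of litters 1 to 4 and 199, 195, 184 and 187 in the females. The lowest and the highest value were both male, and the litters overlapped. It did not pass the litter test (adjusted p = 0.202) unless the female of litter 4 was left out (0.0434), and its log2 fold change in litter 3 was 0.01 with a 95% interval of -0.15 to 0.16.

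Of the muscleblind genes, whose proteins bind YGCY elements and promote the adult pattern of many exons, Mbnl2 was higher in litter 3 and Mbnl1 was not called. Mbnl2, at chr14:120275669-120431697 on the plus strand, had 167, 156, 207 and 162 CPM in the males of litters 1 to 4 and 162, 167, 200 and 139 CPM in the females. Both libraries of litter 3 were above all 6 others. It passed the litter test (adjusted p = 0.00714, log2 range 0.44), and in litter 3 it was 1.28-fold higher by CPM (log2 fold change 0.36 ± 0.07 SE, adjusted p = 0.00184).

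Mbnl1, at chr3:60472830-60629750 on the plus strand, had 109, 103, 108 and 103 CPM in the males of litters 1 to 4 and 110, 119, 103 and 93.7 CPM in the females. Its litters overlapped, and it did not pass the litter test (adjusted p = 0.339). The log2 fold change in litter 3 was 0.00 with a 95% interval of -0.16 to 0.15.

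The litter means of both CELF genes were highest in litter 1 and lowest in litter 4, but neither gene passed the litter test as fitted here. Celf1, at chr2:90940382-91019497 on the plus strand, had 257, 240, 242 and 230 CPM in the males of litters 1 to 4 and 255, 241, 207 and 210 CPM in the females (adjusted p = 0.106). Celf2, at chr2:6539694-7509563 on the minus strand, had 95.5, 86.3, 86.4 and 82.6 CPM in the males and 87.8, 89.8, 83.3 and 65.2 CPM in the females (adjusted p = 0.0707). Celf2 did pass with library size alone (adjusted p = 0.0218), with no filter (0.0145), without litter 2 (0.0312) and when a single male library, that from litter 2 (0.0364) or litter 4 (0.0193), was dropped. The female of litter 4 held the lowest Celf2 value by a wide gap. In litter 4 the log2 fold change of Celf2 against the other litters was -0.26 ± 0.08 (SE), with an adjusted p of 0.0501 that passed the threshold of 0.05 under 6 of 7 other settings and lay between 0.00847 and 0.0924 across them. Leaving out single libraries moved the log2 fold change between -0.42 (male of litter 4 left out) and -0.11 (female of that litter left out), and the adjusted p between 0.0314 and 0.509.

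Ptbp1, at chr10:79854427-79864771 on the plus strand, had 39.9, 42.5, 42.7 and 45.1 CPM in the males of litters 1 to 4 and 45.2, 52.2, 45.9 and 49.1 CPM in the females. The male value was below the female value in all 4 litters, which was so for 9.36% of all tested genes. The lowest female value, 45.2, lay just above the highest male value, 45.1. How many of all tested genes separate the sexes in this way was not counted. Between litters Ptbp1 did not differ by the test (adjusted p = 0.349, log2 range 0.15).

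**Figure D2:**
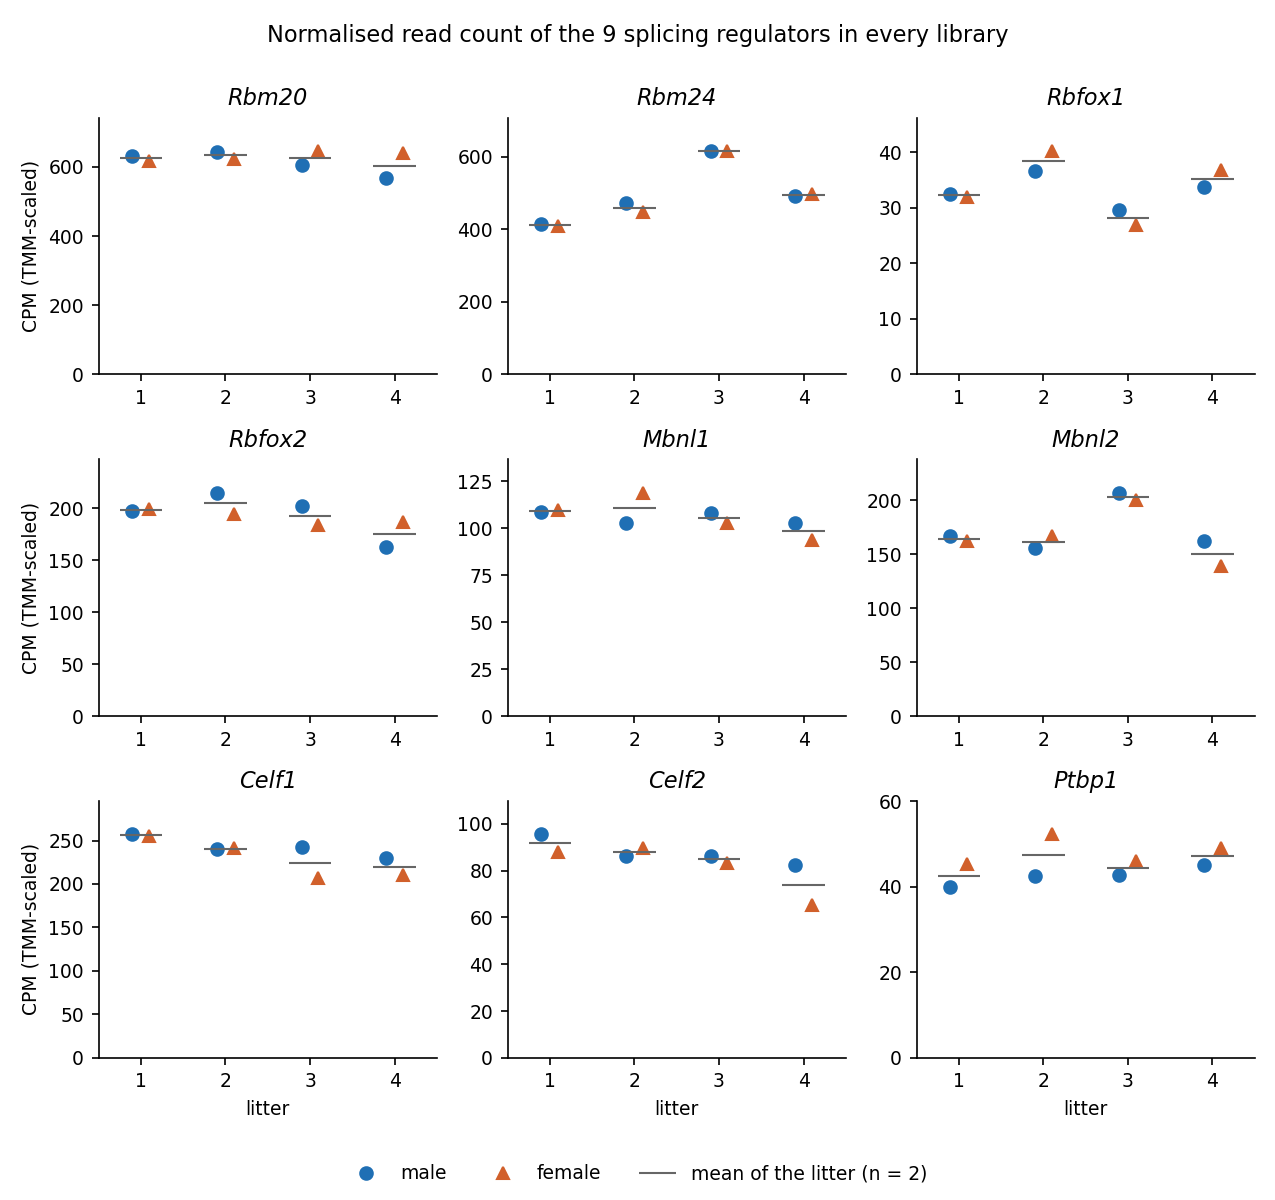
CPM of each of the 9 genes (vertical axes, from 0, with a scale of their own) by litter (horizontal axes); circles are males, triangles females and lines the litter mean of 2. Litter 3 is highest for Rbm24 (616 and 616) and Mbnl2 (207 and 200) and lowest for Rbfox1 (29.5 and 26.9), while Rbm20 is level across litters.

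The first comparison was between the sexes. None of the 9 passed the threshold in the edgeR quasi-likelihood test (adjusted p = 1 for each), and 1 of 9, Ptbp1, had an unadjusted p under 0.05. Over all genes, 6 of 13771 passed, 0.0436%, and 306 (2.22%) had an unadjusted p under 0.05. DESeq2's Wald test also called 0 of the 9. Ptbp1 had 42.6 ± 2.13 CPM in males and 48.1 ± 3.21 in females (SD, n = 4 each), a log2 fold change of -0.18 ± 0.08 (SE, unadjusted p = 0.0442, adjusted p = 1). With litter as a block in the fit its log2 fold change was -0.18 ± 0.06 (SE, unadjusted p = 0.0106, adjusted p = 0.307), and again 0 of the 9 passed, against 29 genes in all, 0.211%. The blocked fit gave 1592 genes, 11.6%, an unadjusted p under 0.05. Markers of other cells differed between the sexes too. In the blocked fit 5 of 8 fibroblast markers passed, and their sum was higher in the male in 4 of 4 litters (51.8 to 243 CPM in males, 32.4 to 153 in females). Of 8 endothelial markers 1 passed, and their sum was higher in the male in 1 of 4 litters (16 to 81.4 against 19.6 to 148). Their part in the Ptbp1 values was not tested.

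The intervals show how large a sex difference the libraries leave room for. With the litter block, which removes the spread between litters, the 95% interval of the log2 fold change was -0.16 to 0.07 for Rbm20 and -0.08 to 0.12 for Rbm24. It was -0.17 to 0.11 for Rbfox1, -0.12 to 0.15 for Rbfox2 and -0.14 to 0.13 for Mbnl1. It was -0.07 to 0.18 for Mbnl2, -0.03 to 0.21 for Celf1 and -0.03 to 0.26 for Celf2. In these 8 genes the interval held 0, and only that of Ptbp1, -0.30 to -0.05, did not.

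The balance between relatives was compared between the sexes as the log2 ratio of their counts within a library. The mean ratio in males minus that in females was -0.04 for Rbfox1 to Rbfox2 and -0.06 for Mbnl1 to Mbnl2. It was -0.03 for Celf1 to Celf2. Two-sided exact permutation tests over all 70 arrangements gave p = 0.857, 0.486 and 0.743, each 0.857 after Benjamini-Hochberg adjustment over the 3 ratios. These arrangements ignore the litter pairs, and the smallest p they allow is 0.0286. Exact tests over the 16 sign changes within litters, which keep the pairs, gave unadjusted p = 0.875, 0.25 and 0.875. Males were higher in 2, 1 and 2 of the 4 litters, so the sign also varied between litters.

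By litter, as a description, the same ratios on the scale of CPM per kb set litter 3 apart for the RBFOX and MBNL pairs. Rbfox1 to Rbfox2 was 0.329 and 0.330 in the male and female of litter 3 and 0.363 to 0.466 in the other 6 libraries. Mbnl1 to Mbnl2 was 0.420 and 0.414 in litter 3 and 0.509 to 0.572 elsewhere. Celf1 to Celf2 was 3.16 and 2.80 in litter 3 and 3.03 to 3.65 elsewhere, so the male lay among the others and the female below them. Across families, Celf1 to Mbnl2 was 0.676 and 0.599 in litter 3 and 0.822 to 0.914 in the other 6, whereas Celf1 to Mbnl1, at 1.61 and 1.45, overlapped the other litters (1.46 to 1.70). In all 8 libraries Celf1 exceeded Mbnl1 and was below Mbnl2 on this scale, but per kb of merged exons Celf1 (24.5 to 30.4 CPM) was above Mbnl2 (11.6 to 17.3) in every library.

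**Figure D3:**
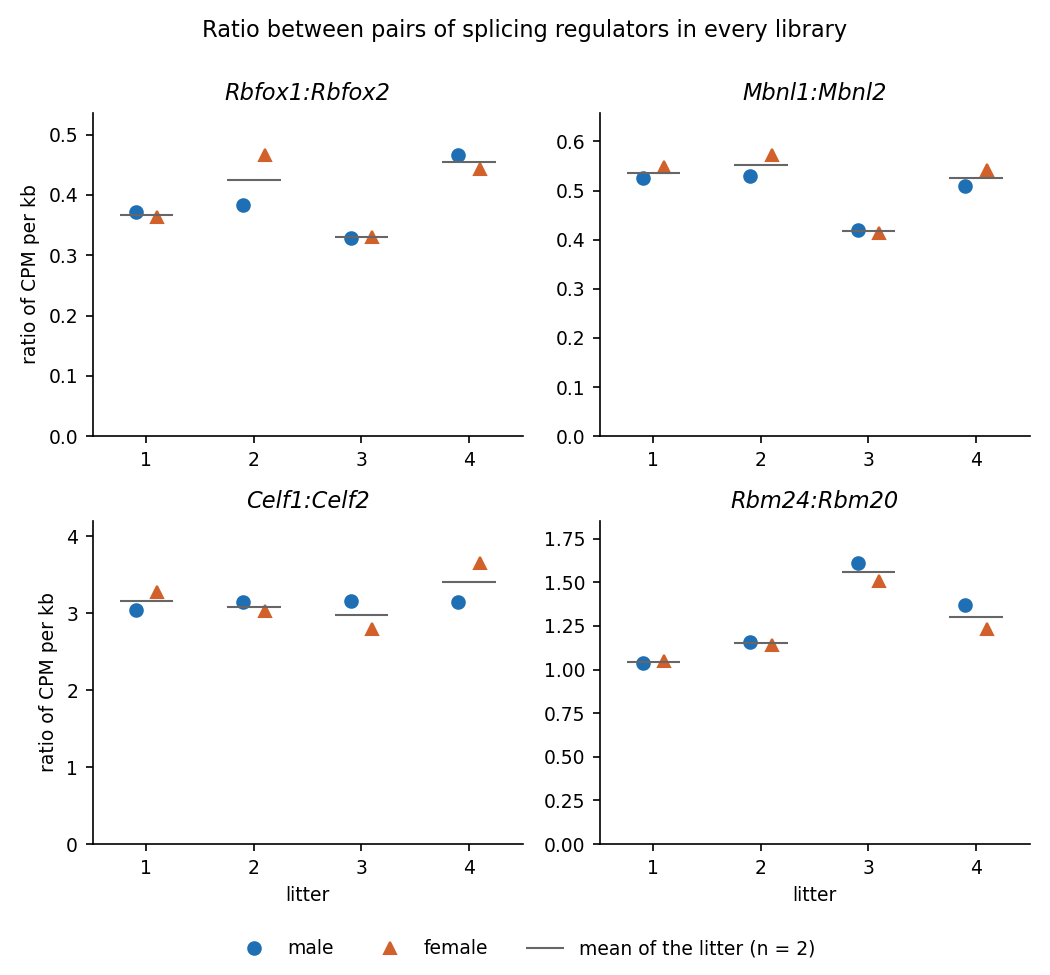
Ratio of CPM per kb between 4 pairs of splicing regulators (vertical axes, from 0) by litter (horizontal axes); circles are males, triangles females and lines the litter mean of 2. Both libraries of litter 3 lie below the others for Rbfox1:Rbfox2 and Mbnl1:Mbnl2 and above them for Rbm24:Rbm20 (1.61 and 1.51). For Celf1:Celf2 the male of litter 3 (3.16) lies among the others and the female (2.80) below them.

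The second comparison asked how the litters differ. In the test of any difference between litters, 3 of the 9 passed, 33.3%, beside 4427 of all tested genes, 32.1%, so the share of members called was that of the table at large. DESeq2's likelihood ratio test also called 3 of the 9. The 3 were Rbm24, Mbnl2 and Rbfox1, and without litter 3 none of the 9 passed in edgeR (adjusted p = 0.0559, 0.489 and 0.141 for these 3), while 1898 genes of the table did. In litter 3, 2 of the 9 were higher, where 13.6% of tested genes were higher, and 1 was lower, where 14.8% were lower. Both libraries of litter 3 lay above all 6 others in 15.1% of tested genes and below them in 16.4%. The median log2 fold change in litter 3 was 0.01 over the 9 members and 0.00 over all genes tested.

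In litter 1, only Rbm24 of the 9 was called, where 5.41% of tested genes were called lower. In litter 2, 0 of the 9 passed in edgeR (4.18% of all genes did) and 2 had an unadjusted p under 0.05, as had 17.9% of all genes: Rbfox1 (log2 fold change 0.27, adjusted p = 0.0627) and Rbm24 (-0.12, adjusted p = 0.25). Rbfox1 did pass there with library size alone (adjusted p = 0.0432) and with no filter on low counts (0.0268). Of the markers, 8 of 8 endothelial, 6 of 8 fibroblast and 3 of 6 mural were higher in litter 2 than in the mean of the others. That mean includes the low litter 3, and the part of these markers was not tested. In litter 4, 0 of the 9 passed (10.5% of all genes did) and 3 had an unadjusted p under 0.05, as had 27.6% of all genes: Celf2, Mbnl2 (log2 fold change -0.22, adjusted p = 0.0545) and Rbfox2 (-0.18, adjusted p = 0.13). The count for litter 4 depended on the scaling: 2 of the 9 were called lower with the size factors of DESeq2 and 3 with library size alone. Mbnl2 passed there under 4 of 7 other settings, with an adjusted p between 0.0125 and 0.307 across them. Library size alone also turned the split of all calls in litter 4 from 648 higher and 799 lower to 262 higher and 1501 lower, and in litter 3 from 1871 and 2032 to 2419 and 1698.

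**Figure D4:**
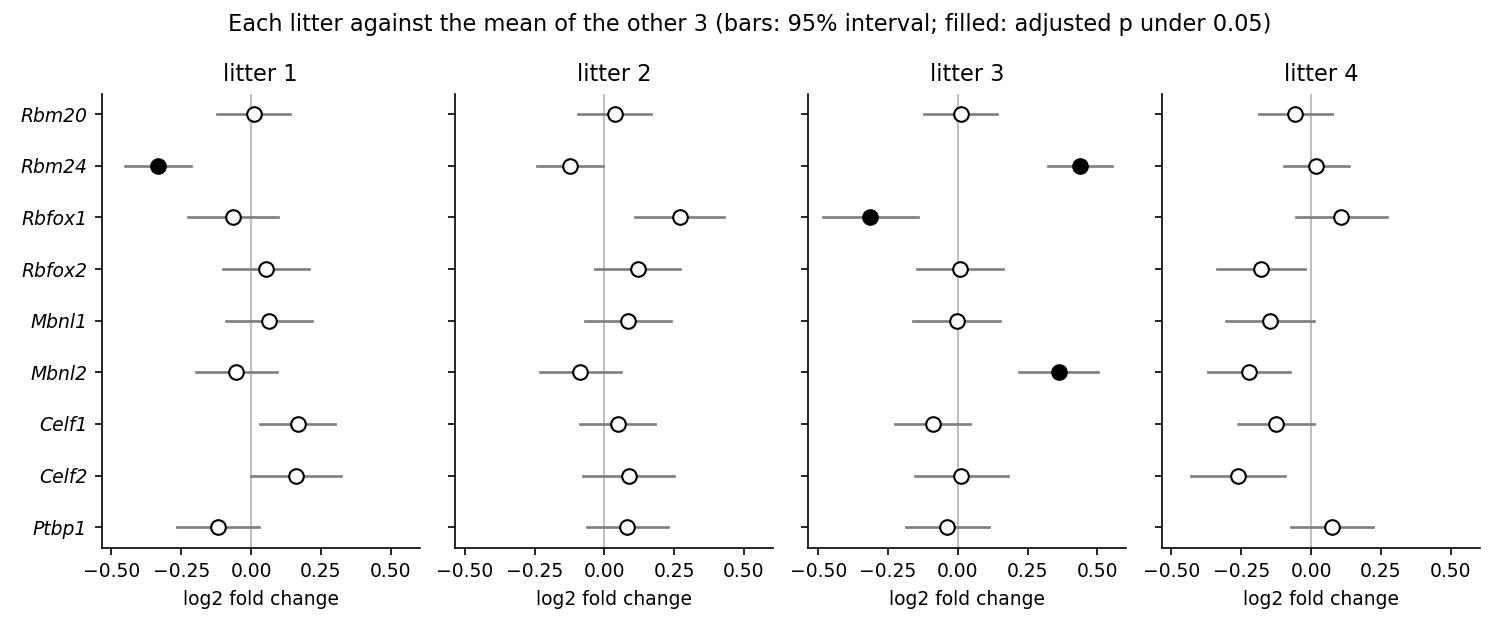
Log2 fold change of each gene in each litter against the mean of the other 3 litters (horizontal axes), with 95% intervals as bars; filled circles have an adjusted p under 0.05 in the edgeR test. The filled circles are Rbm24 in litter 1 (-0.33) and Rbm24 (0.44), Mbnl2 (0.36) and Rbfox1 (-0.31) in litter 3.

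The change in litter 3 was read in each sex separately. Set against the other 3 males, the male of litter 3 had a log2 difference of 0.42 for Rbm24, 0.36 for Mbnl2 and -0.22 for Rbfox1. The corresponding differences in females were 0.45, 0.36 and -0.43. With 1 male and 1 female in litter 3, this comparison has no replicates there, and the spread in its fit comes from the other 6 libraries, differences among litters 1, 2 and 4 included. The interaction of sex with litter 3 did not pass for any of the 9 in edgeR (adjusted p = 1 for each), nor for any gene of the table, of which 208 had an unadjusted p under 0.05. For Rbfox1 the difference between the sexes was 0.22 with a 95% interval of -0.26 to 0.69, so a sizeable difference remains within the error.

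Markers of several cell types moved with litter 3 too. Of 10 cardiomyocyte markers, 6 fell in litter 3 and 0 rose in the edgeR test, with 1 higher at an unadjusted p under 0.05, and their sum was 53600 to 54600 CPM against 70500 to 80700 in the other 6 libraries. Of 8 fibroblast markers 6 fell, and their sum was 32.4 to 51.8 CPM against 108 to 243. Of 8 endothelial markers 5 fell (18.0 to 19.6 against 16 to 148), and of 6 mural markers 4 fell (422 to 451 against 878 to 1140). The endothelial sum was 81.4 and 148 CPM in litter 2, which raises the mean of the others. It was 16 in the male of litter 1, below both libraries of litter 3. Epicardial markers summed to 22.9 to 23.0 CPM against 13.3 to 17.6, with 1 of 4 tested higher and 1 lower, and Upk1b at 0 in at least 1 library. Tbx18 alone gave 21.1 to 21.4 CPM of the sum in litter 3 and 9.89 to 13.7 elsewhere; the other 4 summed to 1.56 to 1.86 in litter 3, below the 2.02 to 3.90 of the other libraries. Erythroid markers went the other way: 2 of 5 tested rose and 0 fell, with a median log2 fold change of 0.95 over the 5. Their sum was 529 CPM in the male of litter 3 and 184 in the female, against 97.7 to 243 elsewhere. Only the male thus lay above the other litters. Among macrophage genes Adgre1, Ptprc and C1qa, and among neural genes Sox10, S100b and Tubb3, were at 0 in at least 1 library. Fewer cells of a type and less RNA per cell cannot be told apart in these bulk libraries. The part of these shifts, and of the low total of the female of litter 3, in the values of Rbm24, Mbnl2 and Rbfox1 was not tested. Without the female of litter 3, Rbm24 and Mbnl2 still passed in litter 3 (adjusted p = 0.00416 and 0.0253), and Rbfox1 did not (adjusted p = 0.189).

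The RefSeq table of promoters (GRCm38.p6, 250 bases before to 50 after a start) held 7 of the 9 genes. The starts of Rbm24 and Mbnl2, the members that rose in litter 3, are shown because both genes were higher there; capitals mark matches to the E-box CANNTG, a site of basic helix-loop-helix factors.
Rbm24, chr13:46418050-46418349, plus strand: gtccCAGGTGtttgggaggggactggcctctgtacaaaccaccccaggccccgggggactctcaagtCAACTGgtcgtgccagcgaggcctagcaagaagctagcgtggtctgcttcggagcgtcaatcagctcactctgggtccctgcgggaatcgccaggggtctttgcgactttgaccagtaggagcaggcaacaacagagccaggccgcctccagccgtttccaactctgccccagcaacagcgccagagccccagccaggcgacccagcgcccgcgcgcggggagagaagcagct
Mbnl2, chr14:120275419-120275718, plus strand: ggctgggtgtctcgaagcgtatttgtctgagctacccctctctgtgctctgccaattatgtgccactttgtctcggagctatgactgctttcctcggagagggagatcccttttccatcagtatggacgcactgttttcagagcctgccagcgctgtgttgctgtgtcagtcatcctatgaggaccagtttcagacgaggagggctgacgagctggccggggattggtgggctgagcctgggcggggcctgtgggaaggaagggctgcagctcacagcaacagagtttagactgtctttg
The Rbm24 sequence holds 2 matches to CANNTG and the Mbnl2 sequence none, while 72.3% of the 32851 promoters in the table hold at least 1. Neither holds the GATA element AGATAA (11.2% of promoters on either strand) or TATAAA (13.6%), and the MEF2 element, found in 3.19% of promoters, matched none of the 7 genes. These 300-base windows had a G and C content of 64.7% for Rbm24 and 56.3% for Mbnl2, against a median of 52.7%. The matches are descriptions of sequence and were not tested for a part in the levels.

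The genes most like the 3 litter-dependent members over the 8 libraries were found by the root mean square difference in log2 CPM after centring each gene. For Rbm24 they were Trmt1 (0.0433), Plbd2 (0.0439) and Tprgl (0.0447), where the SD of Rbm24 itself was 0.227. Tprgl, as an example, had litter means of 84.9, 91.6, 123 and 99.3 CPM. For Mbnl2 they were Yod1 (0.0348), Arid4b (0.0359) and Plcb4 (0.0383), where its SD was 0.188, and for Rbfox1 they were Gas1 (0.0522), Myadm (0.0545) and Naif1 (0.0573), where its SD was 0.186.

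The family relatives of the 9 outside the list were mostly not expressed. Of 9 relatives, 4 were tested, and Rbfox3, Celf3, Celf4, Celf5 and Celf6 had at most 9 counts in any library. Of the 4 tested, 3 (75%) passed the litter test, which 32.1% of all tested genes did. In litter 3, 2 were higher and 0 lower, where 13.6% and 14.8% of all tested genes were. Ptbp2, the neuronal relative of Ptbp1, and Ptbp3 both rose in litter 3, where Ptbp1 did not pass. Ptbp2 had a mean of 74.0 CPM in litter 3 and 51.0 to 61.3 in the other libraries (log2 fold change 0.41 ± 0.07 SE, adjusted p = 0.00104). Ptbp3 had 29.5 against 17.7 to 25.5 CPM (log2 fold change 0.42 ± 0.09 SE, adjusted p = 0.00581). Rbm38, the closest relative of Rbm24, passed the litter test (adjusted p = 0.0374), but its log2 fold change in litter 3 was -0.10 (adjusted p = 0.218). Its coding sequence shares a run of at most 23 bases with that of Rbm24. Mbnl3 had 1.47 CPM in litter 3 and 0.966 to 2.55 in the other libraries and did not pass (adjusted p = 0.0906).

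Other splicing factors moved with the litters in both directions. Of 19 tested regulators known from heart and muscle, 8 (42.1%) passed the litter test, which 32.1% of all tested genes did. In litter 3, 7 were higher and 1 lower, where 13.6% and 14.8% of all tested genes were. Srrm2, a nuclear speckle scaffold, had 757 ± 71.2 CPM in litter 3 and 530 ± 100 in litter 4 (SD, n = 2 each). Matr3 was 0.29 higher and Raver1, a PTBP1 partner, 0.31 lower on the log2 scale in litter 3. The median log2 fold change of the 19 in litter 3 was 0.05.

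Of 19 SR proteins and their kinases, 9 (47.4%) passed the litter test, with 3 higher and 4 lower in litter 3. Over all tested genes, 32.1% passed it, and 13.6% were higher and 14.8% lower in litter 3. Srsf11 (log2 fold change 0.26, adjusted p = 0.00541) and Srsf5 (0.17, adjusted p = 0.0403) were higher in litter 3, while Tra2a (-0.39, adjusted p = 0.00195) and Srsf1 (-0.19, adjusted p = 0.0241) were lower. Srsf5 and Srsf11 were lower in litter 4, at -0.42 and -0.36. Of 18 hnRNP genes, 7 (38.9%) passed, with 2 higher and 5 lower in litter 3. Hnrnpa2b1 was the most changed of these, at 472 ± 8.02 CPM in litter 3 (SD, n = 2) against 670 to 770 in the other libraries (log2 fold change -0.61 ± 0.06 SE, adjusted p = 1.99e-05). Hnrnpa3 and Hnrnpc were lower by -0.28 and -0.29, and Hnrnpa1 was higher by 0.22. Of 23 core spliceosome genes, 6 (26.1%) passed, below the share of all tested genes, with 3 higher and 3 lower in litter 3. The Sm protein gene Snrpd1 (-0.51) and the U1 gene Snrpa (-0.42) were lower, the U1 gene Snrnp70 (0.18) was higher, and Snrpd2 (-0.09, adjusted p = 0.358) was not called there.

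**Figure D5:**
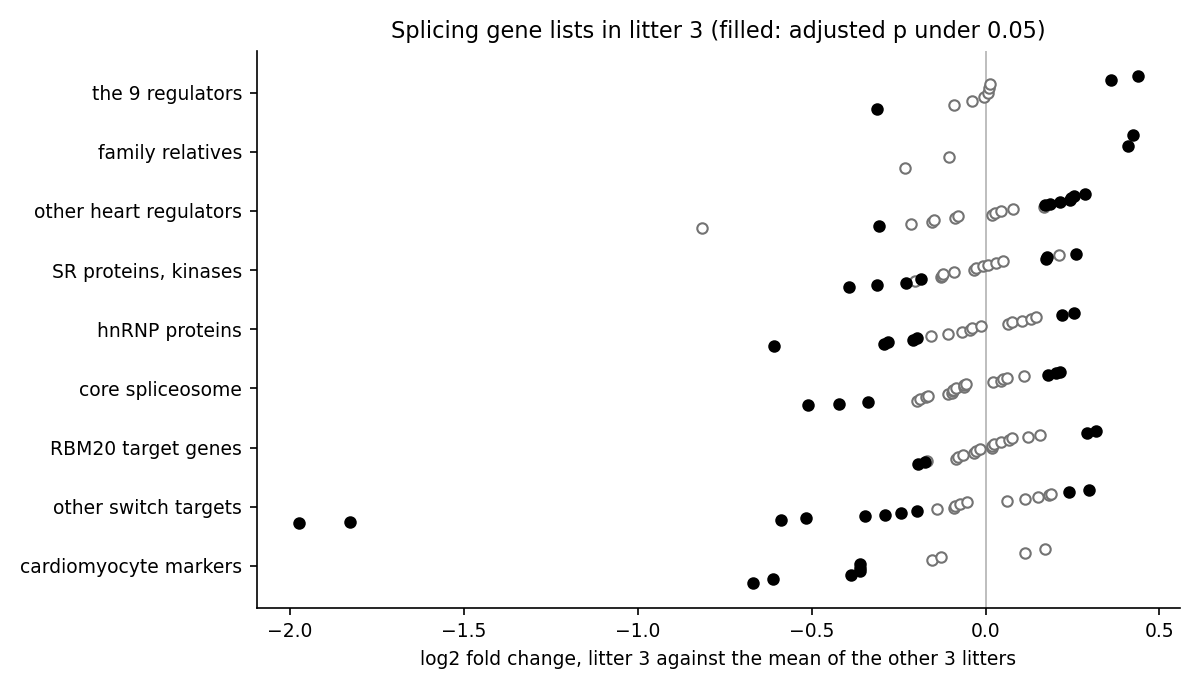
Log2 fold change in litter 3 against the mean of the other 3 litters (horizontal axis) for each tested gene of 8 splicing lists and of the cardiomyocyte markers (vertical axis); filled circles have an adjusted p under 0.05. Each splicing list except the family relatives holds filled circles on both sides of 0, and the 6 filled cardiomyocyte markers lie below 0.

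Genes whose exons RBM20 is known to regulate were measured as totals. Of 19, 9 (47.4%) passed the litter test, with 5 higher and 2 lower in litter 1, 2 and 2 in litter 3 and 2 and 5 in litter 4, beside the even level of Rbm20 itself. Of all tested genes, 32.1% passed the litter test, 7.86% were higher and 5.41% lower in litter 1, 13.6% higher and 14.8% lower in litter 3, and 4.71% higher and 5.8% lower in litter 4. Markers moved with litter 4 as well: 6 of 10 cardiomyocyte, 6 of 8 fibroblast and 3 of 6 mural markers were higher there than in the mean of the other litters, which includes the low litter 3. The cardiomyocyte sum was 70600 to 80700 CPM in litter 4, 70470 to 73830 in litters 1 and 2 and 53600 to 54600 in litter 3. The fibroblast sum was 108 to 227 CPM in litter 4, overlapping the 111 to 243 of litters 1 and 2, and 32.4 to 51.8 in litter 3. The mural sum was 984 to 1140 CPM in litter 4, 878 to 982 in litters 1 and 2 and 422 to 451 in litter 3. In litter 1, 2 of 10 cardiomyocyte and 3 of 8 fibroblast markers were higher, and of 6 mural markers 1 was higher and 2 lower. The male of litter 4 also had a mitochondrial share of 18.46%. The part of the markers and of this share in the changes in litters 1 and 4 was not tested. Ttn, encoding titin, had litter means of 7990 ± 247, 7210 ± 362, 7240 ± 353 and 6280 ± 124 CPM (SD, n = 2 each). It was higher in litter 1 (log2 fold change 0.21, adjusted p = 0.0281) and lower in litter 4 (-0.25, adjusted p = 0.0204). Ryr2, the calcium release channel, had 1730 ± 8.03 CPM in litter 4 and 2230 to 2360 as the means of the others (log2 fold change -0.41, adjusted p = 0.00297), and in litter 1 its log2 fold change was 0.18 (adjusted p = 0.0489). Camk2d, a calcium-dependent kinase, was higher in litter 1 (0.24, adjusted p = 0.018) and lower in litter 3 (-0.17, adjusted p = 0.0451), with about the same value in litter 4 (-0.17, adjusted p = 0.0839). Ldb3, a Z-disc protein, did not pass the litter test (adjusted p = 0.121). Mlip was higher in litter 3, at 0.29, and Dst was lower in litter 4, at -0.36.

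Of 20 other genes known for exons that switch in the developing heart under CELF, MBNL, RBFOX or PTBP1 control, 13 passed the litter test, 65% beside 32.1% of all tested genes, with 2 higher and 8 lower in litter 3, where 13.6% and 14.8% of all were. Tpm1, encoding tropomyosin, had 4870 ± 25.1 CPM in litter 3 (SD, n = 2) against 6220 to 7700 in the other libraries (log2 fold change -0.52, adjusted p = 5.62e-05). Pkm, whose paired exons are a PTBP1 target, had 791 ± 37.0 against 1020 to 1310 (log2 fold change -0.59, adjusted p = 6.80e-05). Fn1, encoding fibronectin, had 8.5 ± 0.0592 against 17.5 to 57.7 (log2 fold change -1.83, adjusted p = 1.99e-05). In litter 3, 6 of 8 fibroblast and 5 of 8 endothelial markers fell too, and their part in the Fn1 values was not tested. Tjp1 was lower in litter 4, at -0.34 (adjusted p = 0.0107). Over these 7 lists together, 0 of 122 tested genes differed between males and females in edgeR, 0 had an unadjusted p under 0.05, and the log2 fold changes ran from -0.22 to 0.25.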

How the data were processed

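The authors deposited a table of raw read counts per gene for 8 libraries of purified cardiomyocytes. Per the submitters' processing notes, STAR 2.7.3a and the mm10 build were used; the counting program, annotation and strand setting are not given in the sources used here. Per the labels' protocols, libraries came from a stranded total RNA kit and were read from 1 end over 100 bases, while the molecule is labelled polyA RNA. Counts were tested with edgeR 4.0.16 (R 4.3.3) by its quasi-likelihood F test after filterByExpr on sex and TMM scaling, with Benjamini-Hochberg adjustment over 13771 genes and a threshold of 0.05; all 8 libraries entered each fit. The script was tested on simulated data. CPM used TMM-scaled totals. Residual degrees of freedom were 6 for sex and 3 for the litter fits, which held sex as a term. The p-values measure the spread between these libraries, which may in part be technical. In the litter fits that spread is the one between the male and the female of the same litter. Anything the 2 libraries of a litter shared, handling included, cannot be told apart from the litter itself.

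The labels state that each litter gave 1 male and 1 female, so litter numbers pair the libraries: deviations from the sex means correlated at 0.367 to 0.696 within litters and -0.482 to 0.270 otherwise. Within each sex, every pair of libraries differed by more than sampling noise (chi-square per degree of freedom of at least 10.4). Alternatives were the size factors and tests of DESeq2 1.42.0, library size alone, other filters, no mitochondrial genes, thinning, the litter block, and leaving out libraries or litters. The members and lists were chosen with earlier results of these data known. Named genes were all members, in each splicing list the 4 genes with the smallest adjusted p in the litter test (plus Ttn, Camk2d, Ldb3 and Ryr2), and the 3 genes nearest in pattern to each litter-dependent member; a few genes that this rule would name are not reported here.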

Additional observations from a re-analysis of the deposited data

Results flagged for a closer look

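Of 30 groups of 4 libraries of a sex examined (the 9 genes in CPM and 6 ratios per kb), 1 held a library set apart from the rest, where chance gives about 1 in 20. The Celf1:Celf2 ratio was 3.04 in the male of litter 1 and 3.14 to 3.16 in the other 3 males, so the gap is large only beside a very narrow range. The females ran from 2.80 to 3.65.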

How the results depend on the processing

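No setting gave any of the 9 a sex difference, with or without the replicate block; the litter block gave 29 genes by sex over the table in place of 6, and 25, 22, 44 and 24 without litters 1, 2, 3 and 4. Without litter 3, 1898 genes and 0 members passed the litter test, against 4427 and 3, and litter 1 had 977 genes and 0 members, litter 2 had 271 genes and litter 4 had 1 member called. None of the 9 was called in litter 4 as reported, against 2 with DESeq2 size factors, 3 with library size alone, 2 with no filter, 2 with a mean of at least 50 counts and 1 without mitochondrial genes. In litter 2, library size alone called 1 member, no filter 1 member and 1249 genes, and a mean of at least 50 counts 345 genes.

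Leaving out 1 library at a time, which leaves a litter with a lone library assumed to vary like the others, the range was 359 to 1869 genes and 0 to 2 members for litter 1, 153 to 752 and 0 to 1 for litter 2, 1704 to 3791 and 2 to 3 for litter 3, and 322 to 1302 and 0 to 2 for litter 4. The ratios by sex ranged from -0.136 to 0.0343 (Rbfox1 to Rbfox2), -0.164 to 0.0189 (Mbnl1 to Mbnl2) and -0.085 to 0.0413 (Celf1 to Celf2).

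Every log2 fold change that took the other sign was uncalled as reported and under the alternative. For litter 3 these were Mbnl1 (0.00341 with DESeq2 size factors, 0.0413 with library size, 0.000366 with no filter, 0.000551 thinned), Ptbp1 (0.00659 with library size), Rbfox2 (-0.023 thinned) and Celf2 (-0.0282 thinned). For litter 4, library size gave Rbm24 -0.0572 and Ptbp1 -0.000872. Without litter 3, Mbnl2 was 0.0762 in litter 1 and 0.0381 in litter 2, and Rbm24 0.0229 in litter 2. With the replicate block, sex values were -0.00777 (Rbm24), -0.0386 (Rbfox2) and 0.052 (Mbnl1) without litter 2, -0.0323 (Rbfox2) without litter 3 and -0.0048 (Mbnl2) without litter 4. With 1 library left out, sex values ranged from -0.0975 to 0.136 (Rbm24), -0.144 to 0.037 (Rbfox1), -0.0404 to 0.0923 (Rbfox2), -0.0662 to 0.0369 (Mbnl1) and -0.0456 to 0.143 (Mbnl2). Rbm20 ranged from -0.0425 to 0.0606, -0.0288 to 0.098, -0.0233 to 0.0432 and -0.138 to 0.0203 in litters 1 to 4. In litter 2, Mbnl1 ranged from -0.0529 to 0.215, Mbnl2 from -0.189 to 0.012, Celf1 from -0.0143 to 0.107 and Celf2 from -0.0267 to 0.196. In litter 3, Rbfox2 ranged from -0.0719 to 0.0812, Mbnl1 from -0.0534 to 0.0449, Celf2 from -0.0347 to 0.0632 and Ptbp1 from -0.0872 to 0.00721, and in litter 4 Rbm24 ranged from -0.00618 to 0.0432. The cause of these shifts was not tested.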
